A study of Homo sapiens with 80 samples.

Results

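The same labelled cell state was read with 2 RNA library kits, a poly(A) kit and a total RNA kit, and the transcripts that differed between the kits on days 0, 2, 4 and 6 of a cardiac differentiation are described here. The libraries were WTC11, a human induced pluripotent stem cell line, at passage 69, from differentiations classed by the submitters as low purity, a class set by staining for cardiac troponin T, a heart muscle protein, at the end (day 16). They were chosen by their labels: 16 poly(A) wells (4 wells on each of the 4 days) and 4 total RNA libraries (1 on each day), 20 of the 80 samples of the series. All groups shared the line, the passage, the purity class and the differentiation method, in which the WNT pathway activator CHIR99021 was given on day 0 and the WNT secretion inhibitor IWP2 on day 2. Day 0 samples are undifferentiated cells by this scheme, day 2 follows WNT activation, and days 4 and 6 follow WNT inhibition.

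The poly(A) wells were prepared with the Illumina TruSeq Stranded mRNA kit and the total RNA libraries with a SMARTer Stranded Total RNA kit for mammalian RNA from Takara, each from 500 ng of total RNA per the labels. The wells came from a single differentiation. The labels do not say whether the total RNA libraries came from that differentiation or from another of the same passage. Kit, experiment, library batch and differentiation cannot be told apart, so "total RNA against poly(A)" below names 2 sets of libraries that differ in all of these. The deposited TPM and the deposited counts give the same well reads different names. The TPM names are used here for well and day, and which names are right was not settled. The poly(A) wells held 6579715 to 11386125 reads on genes and the total RNA libraries 32750497 to 40357968. Values are TPM, a relative abundance in which the reads of a gene are divided by its length and the library is set to a fixed sum.

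A poly(A) kit captures RNA through its 3′ tail of adenosines. Most messenger RNAs carry such a tail, whereas the messenger RNAs of replication-dependent histones end in a conserved stem-loop and have none, and the RNAs made by RNA polymerase III, the snRNAs, the snoRNAs and tRNAs also lack a long tail. A total RNA kit of this type removes ribosomal RNA and copies the rest from random primers, so it reads tailed and untailed RNA alike. Pluripotent cells divide fast and copy their DNA for much of each cycle, the phase in which replication-dependent histone genes are expressed.

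The sequences below show the histone stem-loop in transcripts of the reference (GENCODE v29 on GRCh38, 5′ to 3′, transcript strand). Capitals mark the stem-loop, 6 paired bases on each side of a 4-base loop, with 5 flanking bases in lower case. They are shown because this element takes the place of the tail in these messenger RNAs, and because genes with the same element lay on both sides of the comparison.
HIST1H4I: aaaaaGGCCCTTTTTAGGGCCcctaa
HIST1H3H: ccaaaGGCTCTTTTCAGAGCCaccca
HIST1H4E: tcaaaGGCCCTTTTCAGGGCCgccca
HIST1H4B: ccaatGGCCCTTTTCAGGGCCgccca
HIST2H2BE: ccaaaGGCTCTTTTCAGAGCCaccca
HIST1H2AE: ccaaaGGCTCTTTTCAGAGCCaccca
HIST2H4B: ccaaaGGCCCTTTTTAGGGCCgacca
The first 5 were higher in total RNA on all 4 days, by 3.53 (HIST2H2BE) to 6.52 (HIST1H4I) on the log2 scale as a mean of the 4 days. HIST1H2AE, with the same 26 letters as HIST1H3H and HIST2H2BE, had a mean log2 difference of 0.27 and was not called. HIST2H4B, which has a near-identical copy, was lower in total RNA (−1.84). In the annotated transcripts these stem-loops were followed by 51 (HIST1H2AE) to 1729 (HIST2H2BE) further bases. A match to the histone stem-loop consensus, on the transcript strand, was found in 32 of the 67 replication-dependent histone genes tested (47.8%), in 1 of 12 replacement histone genes and in 21 of 14113 other nuclear protein-coding genes (0.149%). Among the 32, 25 were higher in total RNA on all 4 days and the median log2 difference was 3.57. Over all 67, with or without a match, 56 were higher on all 4 days and the median was 3.60. The 67 include the 32. A match depends on where the annotated transcript ends and on the consensus used, so a gene without a match may still have the element. No conclusion on the stem-loop is drawn from these counts. Among the 21 other coding genes with a match, 1 was higher on all 4 days and the median was 0.11.

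A second set of sequences is that of the mature miRNAs of the MIR302 and MIR367 cluster, which is expressed in pluripotent cells and lies on the minus strand of chromosome 4. Capitals mark the seed, bases 2 to 8. The sequences and positions are those of RefSeq on GRCh38.p14.
hsa-miR-302a-3p: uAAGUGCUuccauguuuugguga
hsa-miR-302b-3p: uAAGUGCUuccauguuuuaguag
hsa-miR-302c-3p: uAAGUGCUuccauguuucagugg
hsa-miR-302d-3p: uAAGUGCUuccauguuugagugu
hsa-miR-367-3p: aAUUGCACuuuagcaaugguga
They lie at chr4:112648186-112648208, chr4:112648489-112648511, chr4:112648366-112648388, chr4:112648006-112648028 and chr4:112647877-112647898, in that order. The 4 MIR302 members share a seed and MIR367 has another. Neither kit is made for RNAs as short as these, and the values given below for these genes are reads on the hairpin genes, which a longer precursor also covers.

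Total RNA libraries held more histone messenger RNA, more of the small structured RNAs and more of the short messenger RNAs of ribosomal proteins and of the respiratory chain than the poly(A) wells on every day, and far less 16S mitochondrial ribosomal RNA. Of 21601 genes tested, 1846 were higher in total RNA on all 4 days (8.55%) and 1064 were lower on all 4 days (4.93%), by limma on log2 values of TPM scaled with TMM, with 1 added, at an adjusted p under 0.05 and a log2 difference of at least 1. Taken by day (0, 2, 4 and 6), 3044 (14.1%), 3332 (15.4%), 3753 (17.4%) and 3578 (16.6%) genes were higher. Genes lower in total RNA numbered 2013 (9.32%), 3290 (15.2%), 3420 (15.8%) and 3562 (16.5%) on the same days, so that 23.4%, 30.7%, 33.2% and 33.1% of genes were called either way. Each day has 1 total RNA library, which the test takes to vary like the wells, and the wells are of 1 differentiation, so the p-values measure the spread between wells only.

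The scale between the kits is a choice. TMM sets the middle of all genes near 0 in each comparison. With TPM as deposited, the median over all genes tested was −0.48, −0.85, −0.97 and −0.88 on days 0, 2, 4 and 6, and with TPM rescaled over nuclear protein-coding genes it was −0.45, −0.73, −0.64 and −0.70. Of all calls, 60.2% were higher in total RNA on day 0 with TMM, 14.6% with TPM as deposited and 15.5% with the coding scale. On days 2, 4 and 6 that share was 50.3%, 52.3% and 50.1% with TMM, 7.90%, 7.99% and 9.74% as deposited, and at most 16.5% on the coding scale. Log2 differences below are relative to the middle gene unless another scale is named, TPM levels are as deposited, and a gene with similar TPM in both kits can therefore have a positive log2 difference.

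**Figure D1:**
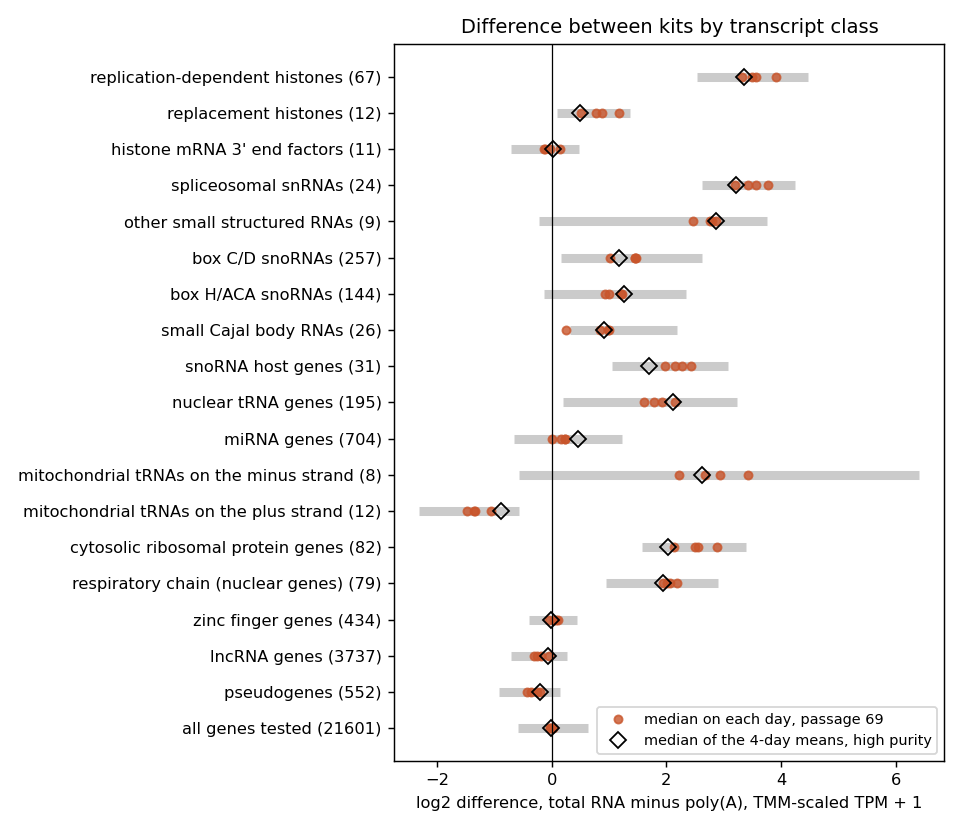
Median log2 difference (total RNA minus poly(A), TMM-scaled TPM + 1) of each transcript class, with the number of members tested in brackets. Filled points are the medians on days 0, 2, 4 and 6 at passage 69, and the open diamond is the median in the WTC11 high purity libraries. Replication-dependent histones lie between 3.32 and 3.92 on the 4 days, and zinc finger genes near 0.

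Replication-dependent histones, which package newly copied DNA, were the class with the largest share of members higher in total RNA among the lists examined. Of 70 entries, 67 were tested, and 56 were higher on all 4 days (83.6%) and 2 lower, with a median log2 difference of 3.60 against −0.06 over all genes tested. By day, 57, 57, 58 and 59 of the 67 were higher on days 0, 2, 4 and 6. The medians of the 4 days were 3.32, 3.57, 3.50 and 3.92. With TPM as deposited, the median was 2.41 and 48 members were higher on all 4 days; on the coding scale these were 2.67 and 51.

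HIST1H4I, an H4 gene at chr6:27139282-27139678 (GRCh38), is 1 example. On day 0 the 4 poly(A) wells had 191, 210, 190 and 249 TPM and the total RNA library 6817 TPM. On day 2 the wells had 157, 165, 156 and 149 TPM and total RNA 5230. The total RNA values lay far above all wells of the day. On day 4 the wells had 161, 165, 168 and 168 TPM and total RNA 5511, and on day 6 the wells had 75.2, 82.4, 81.5 and 90.8 TPM and total RNA 5071. The groups did not overlap on any day, and the wells were lower on day 6 than on day 4 while the total RNA level was near its day 4 value. The log2 differences were 6.00, 6.35, 6.54 and 7.17 (SE 0.13, limma, largest adjusted p of the 4 days 5.69e-14).

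HIST2H3D, an H3 gene at chr1:149813225-149813693, had the largest mean log2 difference of the class, 6.72. Its wells had 44.7, 59.7, 77.9 and 65.3 TPM on day 0 against 3605 in total RNA, and 24.5, 30.2, 23.3 and 25.1 TPM on day 6 against 1761. The groups were again apart on all days, with wells between 23.3 and 77.9 TPM and total RNA between 1376 and 3605 TPM. HIST1H3H (6.45), HIST1H4E (6.29) and HIST1H4F (5.99) followed. HIST1H4D, at chr6:26188710-26189112, was abundant in both kits, with 910 to 1626 TPM in the wells and 6189 to 6698 TPM in total RNA (mean log2 difference 3.66).

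All 5 families of histone took part, and the family of H4 had the highest median. Of the H4 genes tested, 13 of 14 were higher on all 4 days (median 4.88). The H3 genes gave 11 of 14 (4.23), the H2B genes 17 of 17 (3.57), the H1 linker genes 5 of 6 (2.83) and the H2A genes 10 of 16 (2.76). The smallest value among the called members was 1.62, for HIST1H1B. Histone gene models are short, with a median of 467 bases and the longest at 2223 bases. The 5 members with a model over 800 bases were higher on all 4 days, with a median of 3.69.

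A small number of histone genes went against the class. HIST1H2AJ, at chr6:27814302-27814777, was among the most abundant histones in the poly(A) wells, with 5225, 6173, 6633 and 6089 TPM on day 0 against 2318 TPM in total RNA. On day 6 its wells had 3027, 3299, 3764 and 4159 TPM against 2103 in total RNA. The wells were higher than total RNA in TPM, and the scaled log2 differences were −0.40, 0.06, 0.02 and 0.50, none called on all 4 days. HIST1H1A, HIST1H2AD, HIST1H2AE, HIST1H2AM, HIST2H2AA4, HIST2H3A, HIST2H3C and HIST3H3 were also not called on all 4 days. HIST2H2AA3 and HIST2H4B were the 2 members lower in total RNA.

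Both lower members have a near-identical copy beside them, so their reads may be split or dropped in counting and their values are uncertain. HIST2H2AA3, at chr1:149842218-149842750, had 87.6 to 244 TPM in the wells and 4.25 to 5.55 TPM in total RNA, with log2 differences of −4.18, −3.61, −3.52 and −3.40. Summed over the pair, HIST2H2AA3 and HIST2H2AA4 had 112 to 276 TPM in the wells and 8.83 to 12.7 TPM in total RNA. The pair sum was lower in total RNA as well. HIST2H4A and HIST2H4B had 36.1 to 112 TPM in the wells against 15.1 to 29.5 TPM in total RNA, and HIST2H3A and HIST2H3C 10.7 to 56.4 against 7.13 to 11.1 TPM. HIST2H4A by itself was higher by 2.45, a call lost without day 4 well 1. Without these 3 pairs, 55 of 61 histone genes were higher on all 4 days and 0 were lower (median 3.69).

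**Figure D2:**
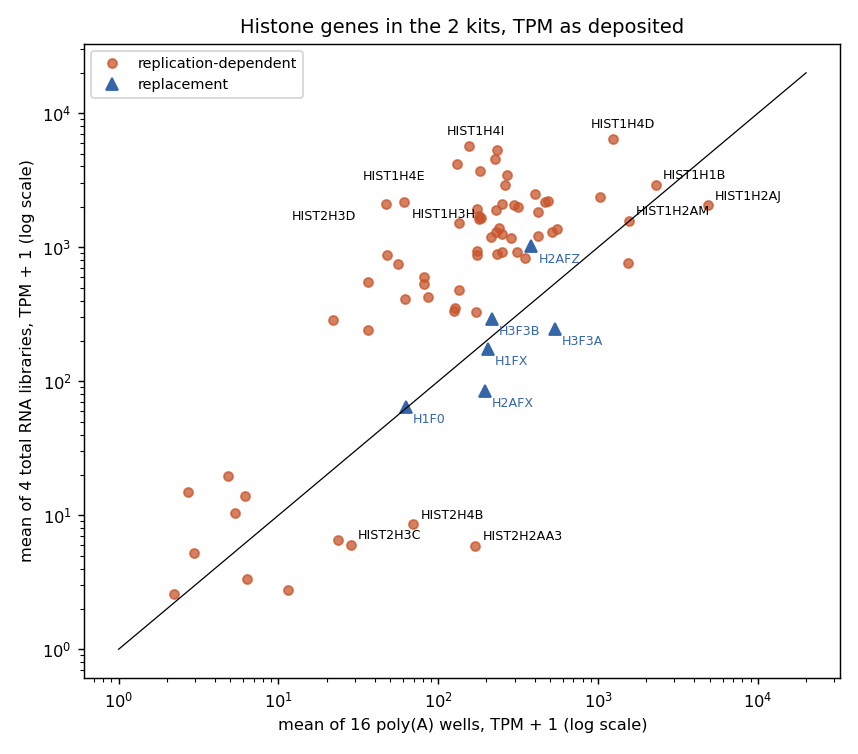
Level of each histone gene as the mean of the 16 poly(A) wells (x axis) and of the 4 total RNA libraries (y axis), TPM + 1 as deposited, both axes on a log scale. Circles are replication-dependent and triangles replacement histones, and the line marks equal levels. Most circles lie above the line, while HIST1H2AJ and HIST2H2AA3 lie below it.

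As a share of each library, replication-dependent histones took 2.88% ± 0.25, 2.13% ± 0.062, 2.57% ± 0.12 and 1.76% ± 0.20 of TPM in the wells of days 0, 2, 4 and 6 (SD, n = 4 wells). The total RNA libraries held 12.0%, 8.59%, 8.70% and 9.57% on those days. The wells spanned 1.54% to 3.15% and did not overlap with total RNA on any day. With 4 wells against 1 library an exact permutation test could not give a p below 0.2, so the shares are descriptions. Counted as reads, the class held 0.502%, 0.383%, 0.414% and 0.290% in the wells on average and 3.67%, 3.08%, 3.55% and 3.48% in total RNA.

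**Figure D3:**
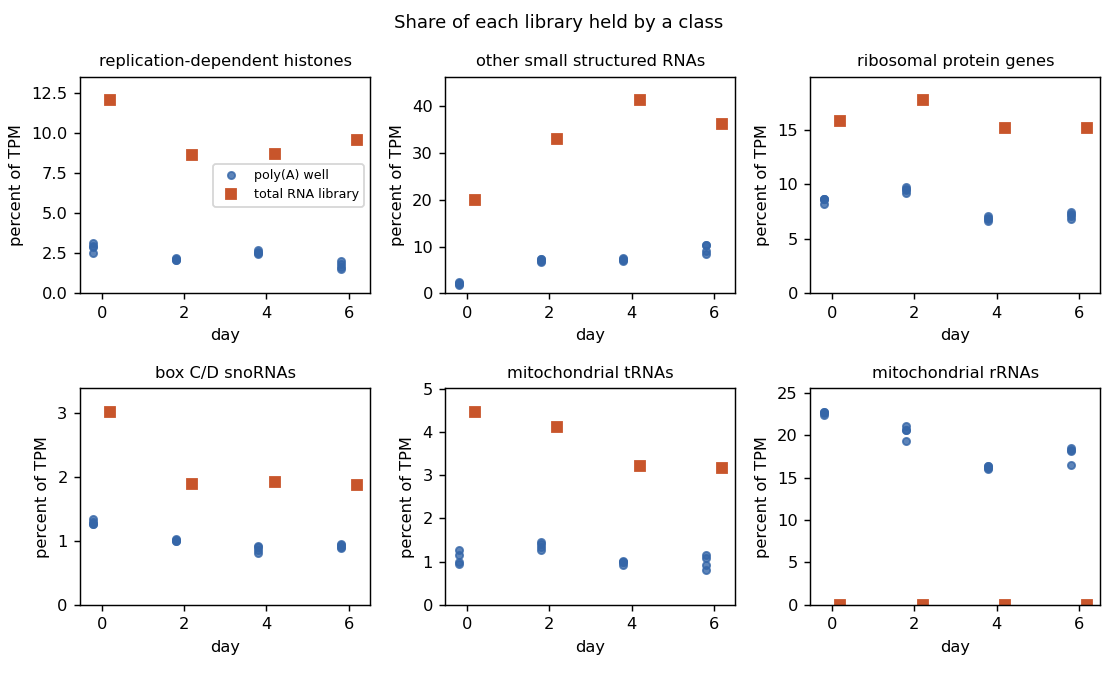
Share of TPM in each library (y axis, percent, a separate scale from 0 in each panel) held by a class, by day (x axis). Circles are the 4 poly(A) wells and squares the total RNA library of the day. Histones, small structured RNAs, ribosomal protein genes and mitochondrial tRNAs are higher in total RNA on all 4 days, and mitochondrial rRNAs are near 0 there.

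Replacement histones, which can be made outside DNA replication and most of whose messenger RNAs carry tails, differed less. Of 12 tested, 3 were higher on all 4 days: H2AFZ (2.57), H2AFJ (1.94) and H3F3B (1.67). H2AFZ wells had 637, 680, 667 and 680 TPM on day 0 against 2117 TPM in total RNA, and 260, 200, 210 and 261 TPM on day 6 against 751. The groups did not overlap on either day. The median of the class was 0.77 with TMM, but −0.47 with TPM as deposited and −0.21 on the coding scale, so its direction depended on the scale. Of the 11 factors tested that cut or bind the 3′ end of histone messenger RNA, 1, 1, 0 and 2 were higher on days 0, 2, 4 and 6 and 1 was lower on each day by limma, and edgeR on recovered reads called 1 higher on all 4 days. SLBP, the stem-loop binding protein, had 21.3 to 37.6 TPM in the wells and 10.5 to 17.1 TPM in total RNA (mean log2 difference 0.07). The median of these factors was −0.03.

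A set of small structured RNAs, most of them made by RNA polymerase III, held a far larger share of TPM in total RNA than in the wells. RN7SK, RN7SL, RMRP, TERC and the vault and Y RNAs together held 2.12% ± 0.20, 7.04% ± 0.34, 7.23% ± 0.22 and 9.51% ± 0.91 of TPM in the wells on days 0, 2, 4 and 6 (SD, n = 4), and 19.8%, 33.0%, 41.1% and 36.2% in total RNA. As reads they were 3.77%, 7.53%, 10.7% and 8.34% of the total RNA libraries. TPM weights short genes more than reads do. Of 9 members tested, 4 were higher on all 4 days (44.4%) and 2 lower.

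RN7SK, the 7SK RNA that holds back a factor of transcription elongation, lies at chr6:52995620-52995951. Its wells had 16146, 18963, 20279 and 18542 TPM on day 0 against 78612 in total RNA. On day 6 the wells had 81194, 88213, 99012 and 99861 TPM against 234808 in total RNA. It was thus high in the poly(A) wells too, and the groups did not overlap on any day. The log2 differences were 3.07, 2.82, 3.40 and 2.60 (SE 0.20, limma, largest adjusted p 3.11e-08).

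RMRP, the RNA of the RNase that processes ribosomal and mitochondrial RNA, lies at chr9:35657750-35658019. The wells had 1617, 1760, 2029 and 1570 TPM on day 0 and total RNA 92149. On day 4 the wells had 2039, 2014, 2244 and 2168 TPM and total RNA 136135. Total RNA was above all wells on each day, by 6.71, 6.57, 7.51 and 6.78 (SE 0.17). RN7SL3, a signal recognition particle RNA at chr14:49853616-49853914, was higher by 6.35, 5.52, 6.79 and 5.84, with 285 to 1425 TPM in the wells and 8060 to 26673 TPM in total RNA. RN7SL1, RN7SL2 and RPPH1 are listed at 0 in all 20 libraries. TERC, the RNA of telomerase, had 37.2 to 326 TPM in the wells and 417 to 1161 TPM in total RNA (mean log2 difference 3.75). RNY1, a Y RNA, was lower (−4.09), as was VTRNA2-1 (−3.24), a call that was lost in 11 of the 16 fits without 1 well.

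Spliceosomal snRNAs, which recognise splice sites, were few in reads but mostly higher in total RNA. Of 24 tested, 16 were higher on all 4 days (66.7%), with a median of 3.56. They held 0.0206% to 0.0291% of TPM in the wells on average and 0.0983% to 0.122% in total RNA. RNU12, of the minor spliceosome, had 3.77 to 30.3 TPM in the wells and 109 to 128 TPM in total RNA (4.03). RNU1-1 had 1.92 to 36.0 TPM in the wells and 60.3 to 117 TPM in total RNA (3.64), without overlap. The calls for RNU1-2 and RNU1-4 were lost in 12 and 11 of the 16 fits without 1 well. U1 and U5 genes have close copies, so reads may be shared among them.

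Small Cajal body RNAs, which guide the modification of snRNAs, held 1.33%, 1.43%, 1.89% and 1.91% of TPM in total RNA and 0.133%, 0.167%, 0.186% and 0.233% in the wells on average. Of 26 tested, 8 were higher on all 4 days (30.8%). SCARNA2, at chr1:109100193-109100612, had 79.1, 107, 131 and 116 TPM in the day 0 wells and 7108 TPM in total RNA. Its day 6 wells had 56.2, 93.5, 76.0 and 80.9 TPM against 7313. Total RNA was above every well, by 7.02, 7.59, 8.30 and 7.82 (SE 0.30). SCARNA10, at chr12:6510222-6510551, was higher by 5.98. The median of the class, 0.60, turned to −0.31 with TPM as deposited and −0.14 on the coding scale, where 6 and 7 members were called higher on all 4 days.

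Box C/D snoRNAs guide 2′-O-methylation and box H/ACA snoRNAs guide pseudouridylation of ribosomal RNA. Of 257 C/D genes tested, 39 were higher on all 4 days (15.2%) and 5 lower (median 1.46). Of 144 H/ACA genes tested, 22 were higher (15.3%) and 2 lower (median 1.03). With TPM as deposited the medians were 0.34 and 0.14. SNORD3A, the U3 RNA at chr17:19188016-19188232, is transcribed from its own promoter. Its wells had 134, 124, 185 and 133 TPM on day 0 against 3461 in total RNA, and 178, 214, 190 and 221 TPM on day 6 against 3207. Total RNA was higher on every day, with a mean log2 difference of 5.33 (limma, largest adjusted p 9.11e-11). SNORD13, with a promoter of its own too, was higher by 4.01. SNORD116-21 (3.95) and SNORD116-20 (3.69) belong to a tandem array processed from introns. SNORD133 was lower (−3.14). Most snoRNA genes lie in introns of host genes, and the strand setting of the counting is not given in the sources used here, so reads of an unspliced host and of its snoRNA cannot be told apart.

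The host genes themselves were also higher in total RNA. Of 31 hosts tested, 19 were higher on all 4 days (61.3%) and 1 lower (CCAR1, −1.65), with a median of 2.15. GAS5, a host of several C/D snoRNAs, had 200, 224, 204 and 217 TPM in the day 0 wells against 601 in total RNA. On day 4 its wells had 95.8, 99.7, 98.1 and 85.0 TPM against 659. Total RNA was above all wells, by 2.48, 3.43, 4.28 and 3.72 (SE 0.08). SNHG19 (4.92), SNHG6 (4.33), SNHG5 (2.87) and RACK1 (1.77), whose transcript codes for a ribosome-bound protein, were higher too. TAF1D had a mean log2 difference of −0.16 and was not called.

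Of 561 entries of transfer RNA genes, 195 were tested. Of these, 36 were higher on all 4 days (18.5%) and 3 lower, with a median of 1.86. As reads the class held 0.00312% to 0.00543% of each well and 0.0231% to 0.0339% of each total RNA library. Such short genes reach a high TPM with few reads: TRNC, a mitochondrial tRNA gene, had up to 49.7 TPM in the wells with at most 8 reads. The well values of tRNA genes thus lie near the read floor, and the log2 differences of single members are uncertain. They held 0.419% to 0.715% of TPM in total RNA and 0.145% to 0.197% in the wells on average. TRI-AAT2-1, an isoleucine tRNA gene at chr6:27688188-27688261, had the largest mean log2 difference, 7.86, and TRR-CCT3-1, an arginine tRNA gene, followed with 7.04. TRC-GCA19-1 was lower (−4.29). The count of members called higher was 76 on day 0 by itself, against 14.1% of all genes.

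Genes of miRNAs did not share a direction. Of 2050 entries, 704 were tested, 26 were higher on all 4 days (3.69%) and 20 lower (2.84%), which is below the shares of all genes. The median was 0.19, and −0.41 with TPM as deposited. The hairpin genes of the MIR302 cluster were among the higher ones. MIR302A wells had 130, 119, 83.8 and 68.3 TPM on day 0 against 1062 TPM in total RNA, and 59.3, 89.2, 98.8 and 70.8 TPM on day 2 against 602. MIR302C had 164, 191, 236 and 203 TPM in the day 0 wells against 902 TPM. On day 6, MIR302B was listed at 0 in all 4 wells and at 158 TPM in total RNA. MIR302A, MIR302B and MIR302C, with the shared seed shown above, were called on all 4 days. MIR302D and MIR367 were not, with 0 to 65.4 and 0 to 132 TPM in the wells and 30.4 to 98.1 and 77.9 to 177 TPM in total RNA. The cluster lies within LARP7, whose own mean log2 difference was 1.5, and SOX2, a pluripotency factor described below, was also higher in total RNA from day 2.

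Mitochondrial RNAs split by kind. RNR2, the 16S ribosomal RNA of mitochondria at positions 1671 to 3229 of the mitochondrial genome, had 227630, 225663, 227847 and 223830 TPM in the day 0 wells and 12.9 TPM in total RNA. On day 6 the wells had 184646, 181144, 182183 and 164982 TPM against 9.44. The wells were higher by several orders of magnitude on all days, with log2 differences of −13.07, −13.50, −13.15 and −12.88 (SE 0.11, limma, largest adjusted p 2.63e-18). Both mitochondrial rRNA genes together held 22.6% ± 0.19, 20.4% ± 0.78, 16.2% ± 0.20 and 17.8% ± 0.90 of TPM in the wells (SD, n = 4) and 0.00303%, 0.00167%, 0.00151% and 0.00214% in total RNA. RNR1, the 12S rRNA, varied widely between wells. On day 2 its wells had 1025, 1224, 1916 and 729 TPM against 10.1 TPM in total RNA, and it was lower in total RNA (log2 difference −5.47, SE 1.34, limma adjusted p 0.00262). On days 0, 4 and 6 its wells had 6.49 to 202 TPM, total RNA lay within the range of the wells of the day, and it was not called (log2 differences 0.23, −0.90 and 0.93).

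MTRNR2L2, a nuclear gene with a copy of the 16S sequence, had 12972 to 29971 reads in each well and 0 in each of the 4 total RNA libraries. It was at least 60907-fold lower in total RNA in TPM, with the floor set at 3 reads in each library. MTRNR2L8, another such copy, had a mean log2 difference of −9.55. Their sequences are close to that of RNR2, so the reads of these genes cannot be told apart with certainty. Removal of ribosomal RNA is a step of the total RNA kit only and cannot be told apart from the other differences between the sets.

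Mitochondrial tRNAs held 4.47%, 4.12%, 3.22% and 3.18% of TPM in total RNA against 1.09% ± 0.15, 1.37% ± 0.079, 0.977% ± 0.039 and 0.990% ± 0.16 in the wells. Of 20 tested, 6 were higher (30.0%) and 7 lower (35.0%) on all 4 days. They differed by strand: on the minus strand 4 of 8 were higher and 1 lower (median 2.67), and on the plus strand 2 of 12 were higher and 6 lower (median −1.25). Most mitochondrial genes are annotated on the plus strand.

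TRNC, the cysteine tRNA at positions 5761 to 5826 on the minus strand, had at most 8 reads in any well and 11978 to 21369 reads in each total RNA library. In TPM, the day 2 wells had 0, 49.7, 40.2 and 5.69 against 11143 in total RNA, and the day 6 wells 11.7, 6.33, 0 and 0 against 8488. All total RNA values were far above the wells. TRNN, the asparagine tRNA next to it, had 0 to 41.5 TPM in the wells and 3390 to 4184 TPM in total RNA. TRNS1 wells had 1733, 1444, 1348 and 1111 TPM on day 0 against 27921 (mean log2 difference 4.88), and TRNY was higher by 4.80. These 4 genes are all on the minus strand.

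The opposite held for several tRNAs of the plus strand. TRNR, the arginine tRNA at positions 10405 to 10469, had 3064, 2319, 2013 and 1914 TPM in the day 0 wells against 213 TPM in total RNA. The log2 differences were −2.44, −2.86, −2.83 and −2.20 (SE 0.20). TRND (−2.88), TRNW (−2.54), TRNL1 (−2.23), TRNL2 (−2.04) and TRNI (−1.26) were lower too. TRNM (1.71) and TRNT (1.27) were the plus-strand genes higher in total RNA, and the call for TRNT was lost without day 2 well 1 or well 4. TRNA, the alanine tRNA, was the minus-strand gene that was lower (−2.64). Where a tRNA abuts a messenger RNA on the same strand, reads of an unprocessed precursor also count for it.

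Of 5 cytosolic ribosomal RNA genes tested, 1 was higher on all 4 days (RNA45SN2, 1.95) and 2 lower (RNA45SN4, −1.51, and RNA45SN5, −2.62). These are near-identical repeats and their values are uncertain. Long noncoding RNAs as a whole were not higher in total RNA: of 3737 tested, 131 were higher (3.51%) and 153 lower (4.09%), with a median of −0.31. They held 0.948% to 1.32% of TPM in total RNA and 1.55% to 2.25% in the wells on average. Of 16 listed long RNAs that stay in the nucleus, MEG8 was higher (1.87) and KCNQ1OT1 lower (−1.99). Pseudogenes gave 14 higher (2.54%) and 54 lower (9.78%) of 552 tested.

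MALAT1, an abundant nuclear RNA at chr11:65497738-65506516, was lower in total RNA. Its wells had 52.6, 53.1, 50.2 and 41.5 TPM on day 0 against 3.11 in total RNA, and 642, 590, 565 and 559 TPM on day 6 against 30.1. Values were higher on day 6 than on day 0 in both sets, and the wells were above total RNA on every day. The log2 differences were −2.80, −2.49, −2.77 and −3.02 (SE 0.12, limma, largest adjusted p 2.49e-10). NEAT1, its neighbour and the RNA of paraspeckles, had a mean log2 difference of −0.90 and was not called on all 4 days.

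Among messenger RNAs with tails, those of cytosolic ribosomal proteins were higher in total RNA. Of 101 entries, 82 were tested, and 65 were higher on all 4 days (79.3%) and 2 lower, with a median of 2.52. By day the medians were 2.14, 2.49, 2.88 and 2.55. They held 8.52% ± 0.24, 9.52% ± 0.24, 6.89% ± 0.21 and 7.16% ± 0.29 of TPM in the wells (SD, n = 4) and 15.8%, 17.7%, 15.1% and 15.2% in total RNA. With TPM as deposited the median was 1.27 and 45 members were higher on all 4 days.

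RPL41, which codes for the smallest ribosomal protein, lies at chr12:56116633-56117967. Its wells had 92.8, 81.3, 81.7 and 90.9 TPM on day 0 against 4255 in total RNA, and 50.1, 49.8, 62.1 and 49.7 TPM on day 4 against 3988. Total RNA was above all wells, by 6.58, 7.02, 7.71 and 7.24 (SE 0.14, limma, largest adjusted p 3.45e-14). RPS27, of the small subunit, had 84.3 to 392 TPM in the wells and 7293 to 9102 TPM in total RNA (mean log2 difference 7.01). RPL10 (4.18), RPS29 (4.10), RPL37 (3.91) and RPS28 (3.67) were also higher.

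The class was not uniform. RPS6, at chr9:19375715-19380236, had 7546, 7714, 7447 and 7652 TPM in the day 0 wells against 4395 in total RNA, and scaled log2 differences of 0.19, 0.55, 0.67 and 0.51. RPL5 had 4109 to 4918 TPM in the wells and 1787 to 2231 TPM in total RNA (mean log2 difference 0.09). Neither was called. RPL35 was called at 1.15 with TMM, but its value was −0.11 with TPM as deposited and its call was lost without day 0 well 1. RPS16, at chr19:39433137-39435949, was lower in total RNA, with 787, 884, 875 and 922 TPM in the day 0 wells against 19.0, and log2 differences of −4.50, −3.99, −3.45 and −4.08. RPS21 was lower as well (−1.84). Ribosomal protein genes have many processed copies in the genome, so reads that map to several places may be missing from some of them.

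Nuclear genes of the respiratory chain showed the same direction. Of 79 tested, 56 were higher on all 4 days (70.9%) and 2 lower (ATP5MGL, −1.48, and UQCRBP1, −1.60, a pseudogene by name), with a median of 2.06. COX8A (4.97) and COX7C (2.45) belong to cytochrome oxidase, NDUFS6 (4.83) and NDUFA1 (4.54) to complex I, UQCRH (4.21) to complex III, and ATP5MF (4.20) and ATP5F1B (1.77) to ATP synthase. COX7C wells had 900, 944, 920 and 899 TPM on day 0 against 2295 in total RNA, and 539, 529, 544 and 492 TPM on day 6 against 1198, without overlap. COX5B was called at 1.25, but its value was −0.0030 with TPM as deposited. The metallothionein genes MT1X (5.56) and MT2A (4.95), which code for short metal-binding proteins, and RAB5IF (5.63) were further messenger RNAs higher in total RNA, and the metallothioneins were picked after their values were seen. Zinc finger genes, with long models, served as a contrast: 14 of 434 were higher (3.23%) and 10 lower (2.30%), with a median of 0.04 that was −1.00 with TPM as deposited.

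Across protein-coding genes the difference went with the length of the gene model. In the shortest of 5 equal length classes, of 180 to 2273 bases, the median log2 difference was 0.75 and 31.0% of genes were higher on all 4 days. The next classes gave 0.33, 0.05 and −0.17. In the longest class, of 7685 to 37666 bases, the median was −0.44, with 0.418% of genes higher and 9.92% lower. Ribosomal protein genes have a median model of 1151.5 bases, respiratory chain genes 1299, and all protein-coding genes tested 4272.5. Without histone, ribosomal protein and respiratory chain genes, the shortest class still had a median of 0.69, with 27.7% of 2686 genes higher. By GC content of the longest transcript, the median went from −0.20 in the lowest of 5 classes (30.24% to 40.87% GC) to 0.45 in the highest (58.28% to 76.75%). Length and GC are related to each other across genes, and these are descriptions over genes, which are not replicates.

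**Figure D4:**
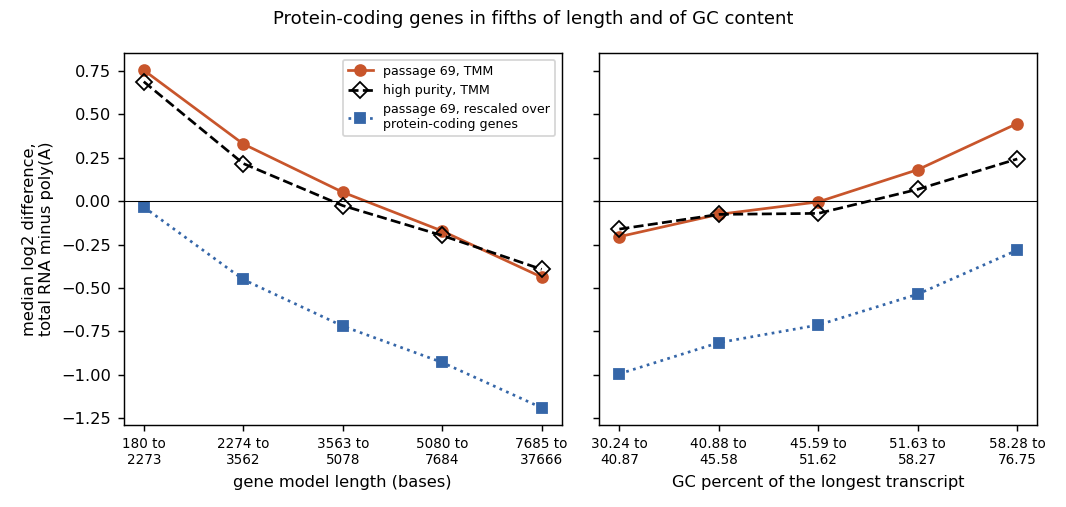
Median log2 difference (total RNA minus poly(A), y axis) of protein-coding genes in 5 equal classes of gene model length (left) and of GC content (right), for passage 69 and for the high purity libraries with TMM and for passage 69 on the coding scale. The medians go from 0.75 in the shortest to −0.44 in the longest class at passage 69, and from −0.20 to 0.45 with GC content.

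Several of the protein-coding genes that were lowest in total RNA have near-identical copies elsewhere in the genome. SETSIP (−5.16), a copy of SET, EIF3CL (−5.00), a copy of the translation factor gene EIF3C, MAGED4B (−4.59), NTAN1 (−4.28) and UTP4_1 (−3.50) are of this kind, and their values are uncertain. Summed over the pairs, EIF3C and EIF3CL had 58.3 to 137 TPM in the wells and 1.28 to 2.62 TPM in total RNA, and MAGED4 and MAGED4B 32.0 to 53.1 against 0.267 to 0.553 TPM. The sums of NTAN1 and its second entry were 19.6 to 40.1 TPM against 0.213 to 0.258 TPM. These sums were lower in total RNA like the single entries. SET and SETSIP summed to 926 to 2151 TPM in the wells and 456 to 1011 TPM in total RNA, and SET itself had a mean log2 difference of 0.22. Among common reference genes, ACTB was lower (−1.23), a call lost without day 0 well 1 or day 6 well 4, and GAPDH had a mean log2 difference of 1.55 and was not called on all 4 days.

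Independent libraries of the same line gave a second reading of the contrast. In WTC11 high purity libraries of days 0, 2, 4 and 6, 16 poly(A) wells of passage 52 and 4 total RNA libraries of passage 81, the same kits were compared, with a difference of passage beside that of kit. Of 20941 genes tested there, 1457 were higher on all 4 days (6.96%) and 1015 lower (4.85%). The 1239 genes higher in both sets were 67.1% of the passage 69 list and 85.0% of the high purity list. The 686 genes lower in both were 64.5% and 67.6% of the lists, and 0 genes were called in opposite directions. Across the 20158 genes in both fits, the mean log2 differences had a Pearson correlation of 0.90 and a Spearman correlation of 0.86; the kits and laboratory are shared, and genes are not independent replicates.

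The class medians listed here had the same sign in the high purity libraries. The median there was 3.35 for replication-dependent histones (52 higher, 2 lower of 66), 3.21 for snRNAs (12 higher of 24), 2.02 for ribosomal protein genes (61 of 82), 1.95 for respiratory chain genes (55 of 79), 1.69 for snoRNA hosts (19 of 31), 1.17 for C/D and 1.27 for H/ACA snoRNAs, and 2.11 for tRNA genes. HIST1H4I had 6.05, RMRP 7.37, SCARNA2 6.85, RPL41 7.01, RNR2 −10.63, MALAT1 −1.98 and HIST1H2AJ 0.03. The share of mitochondrial rRNA varied between total RNA libraries. In the high purity set it was 0.235% of TPM on day 4 and 0.00280% to 0.00346% on the other days. In the total RNA libraries of the other lines, H9 and IMR90-4, it was 0.00160% to 0.693%. The size of the RNR2 difference thus depended on the library. The strand split of the mitochondrial tRNAs was also present, with medians of 2.62 on the minus and −0.88 on the plus strand.

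Markers of cell state differed between the sets, for few genes on day 0 and for more on later days. Of 6 pluripotency markers tested, 1 was called on day 0, NANOG (1.04), and the median was 0.23. SOX2 had 296 ± 12 TPM in the wells (SD, n = 4) and 166 in total RNA (log2 difference 0.14), DNMT3B 897 ± 11 and 385 (−0.24), and DPPA4 674 ± 19 and 362 (0.08). Other day 0 calls were MYL7 (2.99), a cardiac myosin gene, the endoderm markers AFP (2.52) and APOA1 (1.40), and COL1A1 (−2.23). MYL7, AFP and APOA1 were low in both sets. They had 0.944, 0.954 and 0.165 TPM in the day 0 wells on average and 7.23, 5.38 and 1.10 TPM in total RNA. POU5F1, another defining marker, was at 0.844 TPM or less in the entry of that name, which has several copies in the table, and was not tested. On day 4, TNNT2, the gene of cardiac troponin T, had 489 ± 27 TPM in the wells and 0.613 in total RNA, and ACTC1 had a log2 difference of −6.55. Of 5 cardiac mesoderm markers, 2 were higher on day 4, MESP1 (5.03) and MESP2 (4.03), and 3 lower, HAND1 (−1.41), KDR (−2.59) and PDGFRA (−1.91). SOX2 had 6.08 ± 1.8 TPM in the day 4 wells and 102 in total RNA.

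On day 2, 4 of 6 pluripotency markers were higher in total RNA, with SOX2 at 3.91 and NANOG at 4.00, and 2 of 5 cardiac mesoderm markers were lower, HAND1 (−2.33) and PDGFRA (−1.90). All 6 cardiomyocyte markers and all 6 cardiac progenitor markers tested were lower in total RNA on day 4, as were 3 of 4 stromal markers, such as COL1A1 (−5.42). All 6 tested pluripotency markers were higher on day 4. Cell-state markers thus moved with the comparison on days 2, 4 and 6, and some on day 0, and their part in the results for genes and classes was not tested. On day 0 by itself 57 of 67 histones, 66 of 82 ribosomal protein genes, 58 of 79 respiratory chain genes, 20 of 24 snRNAs and 22 of 31 snoRNA hosts were higher, and on days 0 and 2 together 56, 66, 57, 16 and 21; a count over fewer days cannot be below that over all 4. The day 0 medians of these classes were 3.32, 2.14, 1.95, 3.77 and 1.97, against 3.92, 2.55, 2.01, 3.42 and 2.27 on day 6. Of the 16 wells, 12 had the total RNA library of their own day as the nearest of the 4, with correlations of 0.782 to 0.880 across genes, against 0.952 to 0.975 between wells of a day.

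The difference between the 2 sets of libraries changed with the day for some genes. From day 0 to day 2 it changed for 1569 genes (7.26%), to day 4 for 2351 (10.9%) and to day 6 for 2076 (9.61%), by the same limma threshold. Among genes with at least 10 reads in every total RNA library, the largest rises to day 6 were those of CRABP1 (from 1.05 to 7.49), SFRP2 (from −1.86 to 4.38) and SOX2 (from 0.14 to 5.83). In the other direction, among genes with at least 10 reads in every well, they were DSC3 (from 0.07 to −4.88), COL6A3 (from −0.12 to −4.69) and PLXNA2 (from −0.39 to −4.48). Genes under that minimum could change more, such as AFP (from 2.52 to −4.47), which was at 0 TPM in the day 2 wells. CRABP1 binds retinoic acid, SFRP2 is a WNT antagonist, and COL6A3 is a collagen. SOX2, a marker of cell state, went from 296 to 4.29 TPM in the wells on average and from 166 to 120 TPM in total RNA. Kit, differentiation and a possible error in the names of the wells cannot be told apart in these changes, and their cause was not tested.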

How the data were processed

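RNA-seq of WTC11 cells was used, in 16 poly(A) wells and 4 total RNA libraries at passage 69 and in 20 high purity libraries. Per the labels' protocols, RNA was extracted with Trizol and a column with DNase and sequenced on a NovaSeq 6000. The submitters' processing notes name STAR 2.5.3a, featureCounts 2.0.3 and hg38; the annotation release, the strand setting and the way TPM was computed are not given in the sources used here. The authors deposited a table of TPM and a table of raw counts per gene for each experiment. Of 43388 gene names in each TPM table, 43361 were in both.

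The deposited TPM of the wells gave whole reads for 100% of nonzero values in 37194 genes, within 0.02 bases of a whole gene length. For all 16 wells the deposited count table carried those reads under the name of some other column, so the names in the TPM table were used, and the counts served only as an alternative. For total RNA counts, 36 broken lines (6 genes) were left out.

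A gene was tested if 4 or more of the 20 libraries had 1 TPM or more. TPM was scaled with TMM (edgeR 4.0.16), log2(TPM + 1) was fitted with limma 3.58.1 (trend, 8 means for kit and day, 12 residual degrees of freedom) in R 4.3.3, and p-values were adjusted by Benjamini and Hochberg over all genes tested. A fold change on this scale understates the change of low genes. Data were simulated with 50 genes changed at each size. Of the genes raised by 2 and 3 on the log2 scale, 41 and 44 were recovered on all 4 days. Of those lowered by 2 and 3, 28 and 33 were recovered, and 0 of 21940 genes were called falsely. The simulated total RNA libraries were drawn from the day means of the wells, with 1 fixed dispersion for all genes. They held no shift of library, batch or differentiation, so the rate of false calls in the real comparison was not measured. Alternatives were RLE scaling, no scaling, scaling over coding genes, a pseudocount of 0.1, no filter, no fold threshold, edgeR and DESeq2 1.42.0 on recovered reads, a well block, leaving out each well or day, and 1 term for kit.

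Classes were defined by symbol or RefSeq type, and positions are those of RefSeq on GRCh38.p14. The members and lists were chosen with earlier results of these data known. Genes were named by rule: the 8 protein-coding and 6 other genes with the largest difference in each direction with at least 10 reads in every library of the higher kit, the 4 most abundant members of each class, a list of reference and marker genes, and the 3 genes in each direction with the largest change to day 6. The genes chosen for their change to day 6 had to meet the same read minimum. Other class members were named after their values were seen. Mitochondrial messenger RNAs, XIST, Y-linked genes and the other measurements of the series are not analysed here.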

Additional observations from a re-analysis of the deposited data

Results flagged for a closer look

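Values flagged for an unusual library or a difference between days are given without an explanation. In 76 groups of 4 wells tested, where chance flags about 1 in 20, a single well stood apart: the share of TPM in cytosolic ribosomal protein genes on day 0 was 8.16% in 1 well against 8.63%, 8.65% and 8.65% in the others. Over all 21601 genes tested, the difference between total RNA and poly(A) changed from day 0 to day 6 for 2076 (9.61%) by limma. Among the short list of reference and marker genes and the day-change genes named by the rule these were 11, of which 6 were chosen for the size of this change. Other cell-state markers are not among the 11, and the difference also moved for some of them. It went from 2.52 to −4.47 for AFP and from 0.07 to −3.41 for HAND1, and from −0.36 to 2.69 for OTX2. The difference was greater on day 6 by 6.44 for CRABP1, 6.24 for SFRP2 and 5.69 for SOX2 on the log2 scale. The change was −4.95 for DSC3, −4.57 for COL6A3 and −4.10 for PLXNA2. Among replacement histones it was 1.31 for H1F0 (from 0.86 to 2.17), 1.09 for H2AFX (from −0.43 to 0.65) and 1.03 for H3F3A (from −0.42 to 0.61). For the cardiac genes it was −2.11 for TNNT2 (from 0.35 to −1.76) and −1.27 for ACTC1 (from −0.87 to −2.13).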

How the results depend on the processing

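Counts moved with the scale between kits, the fold threshold and, for some, the tool or the column names. The 1846 genes higher on all 4 days became 422 with TPM as deposited, 537 on the coding scale, 3519 with no fold threshold and 3521 with 1 term for kit. The 1064 lower genes became 4437, 3744, 3077 and 2717 under those settings. They became 1612 with a pseudocount of 0.1, 1598 with edgeR on recovered reads and 1729 with DESeq2. With edgeR on the well counts under their deposited names they were 2258, to be set against the 1598. Genes called with no fold threshold were 10391, 12172, 12596 and 12730 on days 0, 2, 4 and 6. Day 4 calls were 10862 with TPM as deposited. Day 0 calls were 11438 with edgeR on the well counts under their deposited names, against 6887 with edgeR on recovered reads. In the high purity libraries 326 genes were higher and 4944 lower as deposited, and 606 and 3132 on the coding scale. The cause of these shifts was not tested.

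Class medians as deposited and on the coding scale were 2.41 and 2.67 for histones, 1.27 and 1.52 for ribosomal protein genes, 0.82 and 1.07 for the respiratory chain, 0.34 and 0.57 for C/D snoRNAs, 0.14 and 0.30 for H/ACA snoRNAs, 2.36 and 2.60 for snRNAs, 1.72 and 1.98 for small structured RNAs, 0.92 and 1.11 for tRNAs, 0.90 and 1.16 for snoRNA hosts, −0.71 and −0.63 for long noncoding RNAs, and −0.93 and −0.79 for pseudogenes. Each kept its sign. Members higher on all 4 days, as deposited and on the coding scale, were 27 and 34 of the respiratory chain, 6 and 8 snRNAs, 14 and 18 tRNAs, 9 and 11 hosts, and 9 and 9 H/ACA snoRNAs; C/D snoRNAs were 19 as deposited. With edgeR they were 62 C/D snoRNAs, 35 H/ACA snoRNAs and 22 tRNAs, and on day 0 by itself 43 H/ACA snoRNAs and 76 tRNAs. As a share of reads in place of TPM, the log2 ratio between kits went from 2.07 to 3.14 for histones, 1.00 to 2.09 for ribosomal protein genes, 2.47 to 3.54 for small structured RNAs, 1.08 to 2.34 for C/D snoRNAs and 1.76 to 2.93 for mitochondrial tRNAs. RPL35 (−0.11) and COX5B (−0.0030) reversed as deposited.

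Without 1 well, 1820 to 1847 genes were higher and 1034 to 1071 lower on all 4 days, and 4941 to 5050, 6329 to 6624, 7043 to 7164 and 6935 to 7130 genes were called on days 0, 2, 4 and 6. With the well number as a replicate block, 1835 genes were higher and 1067 lower, and the daily calls were 5052, 6612, 7155 and 7134. The numbers do not pair the wells: deviations of same-numbered wells on different days correlated between −0.024 and 0.032, and 7 of 16 wells correlated best with their own number. Of 110 single-gene results, the call was lost for 14 and gained for 15 as deposited, beside the 2 reversed, and lost for 13 and gained for 14 on the coding scale. It was lost for 2 with RLE, 1 with DESeq2, 2 with edgeR and 3 with a pseudocount of 0.1, and gained for 2 with each of the last 3. A single total RNA library per day limits every comparison, and its own spread was not measured.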
